A study of Homo sapiens with 9 samples.

Results

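Transcripts of 37 genes of cholesterol and fatty acid metabolism were followed in spinal cord organoids (SCOs), chosen by gene name out of 26871 genes that appear in all 3 deposited tables. The genes fall into 18 enzymes of sterol synthesis, 5 regulators, 4 genes of uptake and transport, 2 exporters and 8 enzymes of fatty acid synthesis. SCOs are human tissue grown from induced pluripotent stem cells, here the WTC line, which carries a reporter driven by SOX10, a gene of neural crest cells (NCCs), in clones C2, C36 and C40. Bulk RNA sequencing was performed on 9 libraries, 3 for each of 3 conditions, and for each library several SCOs of a clone were pooled. Each replicate number carries the same code in the column names of all 3 conditions, but the labels do not tie a code or a library to a clone. All SCOs received FGF, and the vehicle SCOs received FGF alone. VPA SCOs also received valproic acid, an anticonvulsant that inhibits histone deacetylases, and VPA + Rapamycin SCOs received both VPA and Rapamycin, an inhibitor of the growth kinase mTOR. The labels give an exposure of 96 h and no dose. The text of the study gives doses of VPA that differ between its sections, and the times of exposure in it are not all those of the labels, so no dose is given here.

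Cells make cholesterol from acetyl-CoA through mevalonate, farnesyl diphosphate, squalene and lanosterol. When sterol in the endoplasmic reticulum is low, SCAP carries the transcription factors SREBF1 and SREBF2 to the Golgi, where they are cut and released to the nucleus, and they switch on the genes of sterol and fatty acid synthesis. When sterol is plentiful, INSIG1 and INSIG2 hold SCAP back. Excess sterol also gives rise to oxysterols, which activate the LXR receptors and through them the exporters ABCA1 and ABCG1. Neural progenitors and neurons depend on sterol made within the nervous system, and inborn loss of late enzymes such as DHCR7 causes malformations.

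Stretches of promoter are shown for a target enzyme, a feedback regulator, the sterol-responsive factor and an exporter. They were picked as genes whose transcripts moved by different amounts in the comparisons that follow. Whether the sequences bear on those changes was not tested. Each stretch is read 5′ to 3′ on the strand of the gene, starts 250 bases before the RefSeq start and ends at the last base before the gene begins in the deposited tables. Capitals mark the sterol regulatory element core TCACNCCAC and the NF-Y box CCAAT, on either strand, so that a CCAAT on the other strand reads ATTGG. The positions are chr5:43313513-43313662 on the minus strand for HMGCS1 (ENSG00000112972), chr7:155297628-155297775 on the plus strand for INSIG1 (ENSG00000186480), chr22:41832855-41833078 on the plus strand for SREBF2 (ENSG00000198911) and chr9:104928238-104928405 on the minus strand for ABCA1 (ENSG00000165029), all from RefSeq on GRCh38.p14.
HMGCS1: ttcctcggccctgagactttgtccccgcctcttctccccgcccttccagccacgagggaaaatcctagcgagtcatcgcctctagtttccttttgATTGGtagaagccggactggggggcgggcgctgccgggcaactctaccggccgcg
INSIG1: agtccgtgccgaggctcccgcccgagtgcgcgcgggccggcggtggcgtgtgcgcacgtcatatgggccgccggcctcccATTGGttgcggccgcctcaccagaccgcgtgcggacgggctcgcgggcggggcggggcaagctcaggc
SREBF2: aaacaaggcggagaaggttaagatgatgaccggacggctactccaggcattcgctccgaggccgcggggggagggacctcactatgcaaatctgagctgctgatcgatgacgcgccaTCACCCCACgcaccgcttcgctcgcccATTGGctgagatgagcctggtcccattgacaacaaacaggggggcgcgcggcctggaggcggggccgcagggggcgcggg
ABCA1: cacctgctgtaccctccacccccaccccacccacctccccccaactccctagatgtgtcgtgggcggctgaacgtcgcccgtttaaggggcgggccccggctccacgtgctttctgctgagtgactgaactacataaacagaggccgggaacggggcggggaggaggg
HMGCS1 and INSIG1 each held an NF-Y box in the printed stretch. SREBF2 held both the sterol element core and an NF-Y box, and ABCA1 held neither.

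A promoter window of 300 bases, from 250 before to 50 after the start, was listed for 32 of the 37 genes. It was not listed for FASN, ABCG1, FDFT1, SQLE and ACAT2. The NF-Y box stood in 23 of the 32 genes (71.9%), against 42.0% of 13864 genes of the tables with a window. It was present in 13 of 15 enzymes of sterol synthesis and in 5 of 7 enzymes of fatty acid synthesis. The GC box GGGCGG stood in 31 of the 32 genes (96.9%), against 70.6% of the genes of the tables. The E-box CACGTG stood in 5 genes (15.6%), against 11.7%. The exact sterol element core stood in SREBF2 alone (3.12%), against 1.46%. The exact DR4 element of LXR, a pair of AGGTCA half-sites with 4 bases between them, stood in 0 of the 32, against 0.00721%. So rare an exact match cannot tell whether these genes hold an LXR element, since sites with a differing base were not searched. All of these counts are matches of letters on either strand and show no binding.

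Total counts ranged from 15290299 to 17417338 over the 9 libraries, and 3 counts in a library correspond to 0.172 to 0.196 CPM (counts scaled to library size). Vehicle replicate 3 stood apart from the other vehicle libraries for a few markers, which were named after their values were seen. TFAP2B, a neural crest gene, was at 314 normalised counts there and at 2 in each of the other two, and DCN, a mesenchymal gene, was at 99 against 0. PRRX1 was also at 0 in vehicle replicates 1 and 2, and TFAP2B was at 0 in VPA replicates 2 and 3. Other genes of the same lists, SOX10 (235) and COL1A1 (1189) among them, were lowest in vehicle replicate 3. The mesenchymal sum was highest in vehicle replicate 1 (5383). MOG, MAG and MOBP of the oligodendrocyte list were not listed in the tables.

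Levels of cell type markers also differed between conditions. SOX10, the gene of the reporter, measured 339, 270 and 235 normalised counts in vehicle, 5, 10 and 8 in VPA, and 8, 36 and 66 in VPA + Rapamycin. All treated libraries lay below vehicle. In vehicle, VPA and VPA + Rapamycin in turn, the neural crest list (7 of 7 listed) summed to 2273 to 2894, 1673 to 1793 and 1822 to 2169, of which SOX9 alone made 72.7%, 81.9% and 82.3%. Neuron markers (7 of 7) summed to 21253 to 36035, 18147 to 19534 and 19644 to 20387. Mesenchymal markers (8 of 8) summed to 2699 to 5383, 9837 to 12306 and 4766 to 6714. COL1A1 and COL1A2 made 90.5% of that sum in VPA, while the means of COL3A1, PRRX1, DCN and PDGFRA were lower in VPA than in vehicle. For COL3A1, PRRX1 and DCN that vehicle mean rested on vehicle replicate 3 (87, 54 and 99 normalised counts). Every VPA library lay above vehicle replicates 1 and 2 for these genes. Astrocyte markers (5 of 5) summed to 280 to 728, 765 to 1012 and 764 to 794, with 91.2% from SLC1A2 in VPA. AQP4 had means of 3.47, 1.32 and 1.37. Neural progenitor markers (6 of 6) summed to 29805 to 33787, 35176 to 38828 and 31130 to 34044. Within that list HES5 had means of 5223, 10172 and 6662, MSI1 of 2504, 1546 and 1677, and SOX2 of 4486, 4582 and 4647. The part of these markers in the results on the metabolic genes was not tested, and in whole SCOs fewer cells of a type and less RNA per cell cannot be told apart.

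Most of the 37 listed genes, which were chosen with earlier results of these data known, were lower after exposure to VPA. Of the 37 genes, all of which were abundant enough to be tested, 21 fell and 1 rose in VPA against vehicle (edgeR quasi-likelihood test, threshold of 0.05 on p-values adjusted over all genes). Over all 17360 genes tested, 15.7% fell and 16.4% rose. The median log2 fold change of the 37 genes was -0.45, beside -0.0030 over all genes. The lowered genes were 9 of 18 enzymes of sterol synthesis, 7 of 8 enzymes of fatty acid synthesis, the regulators INSIG1 and INSIG2, VLDLR and STARD4 of uptake and transport, and the exporter ABCA1. The raised gene was APOE. Of these 22 calls, 18 held under every alternative setting and with each library left out in turn. Without vehicle replicate 3 the counts were 27 lower and 2 higher, beside 17.6% and 18.6% over all genes.

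With Rapamycin added to VPA, most of the genes were again lower than in vehicle. Compared with VPA alone, 8 of the 37 genes fell and 1 rose, beside 3.73% lower and 3.01% higher over 17317 genes. Against vehicle, 25 genes were lower and 2 were higher in VPA + Rapamycin, beside 9.22% and 9.81% over 17383 genes. The median log2 fold changes of the 37 genes were -0.18 and -0.68. The 3 comparisons share libraries and are not independent of each other, so their values are given side by side. The calls against VPA were fragile: with all 9 libraries in a single fit APOE alone of the 37 genes was called, beside 0.383% of 18008 genes lower. The count of lower genes went to 3 without VPA replicate 2 (1.66% lower over all genes). It went to 5 without VPA replicate 1 (1.99%) or without VPA + Rapamycin replicate 3 (1.94%). Calls over all genes thus also fell in these fits, from 3.73%.

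**Figure D1:**
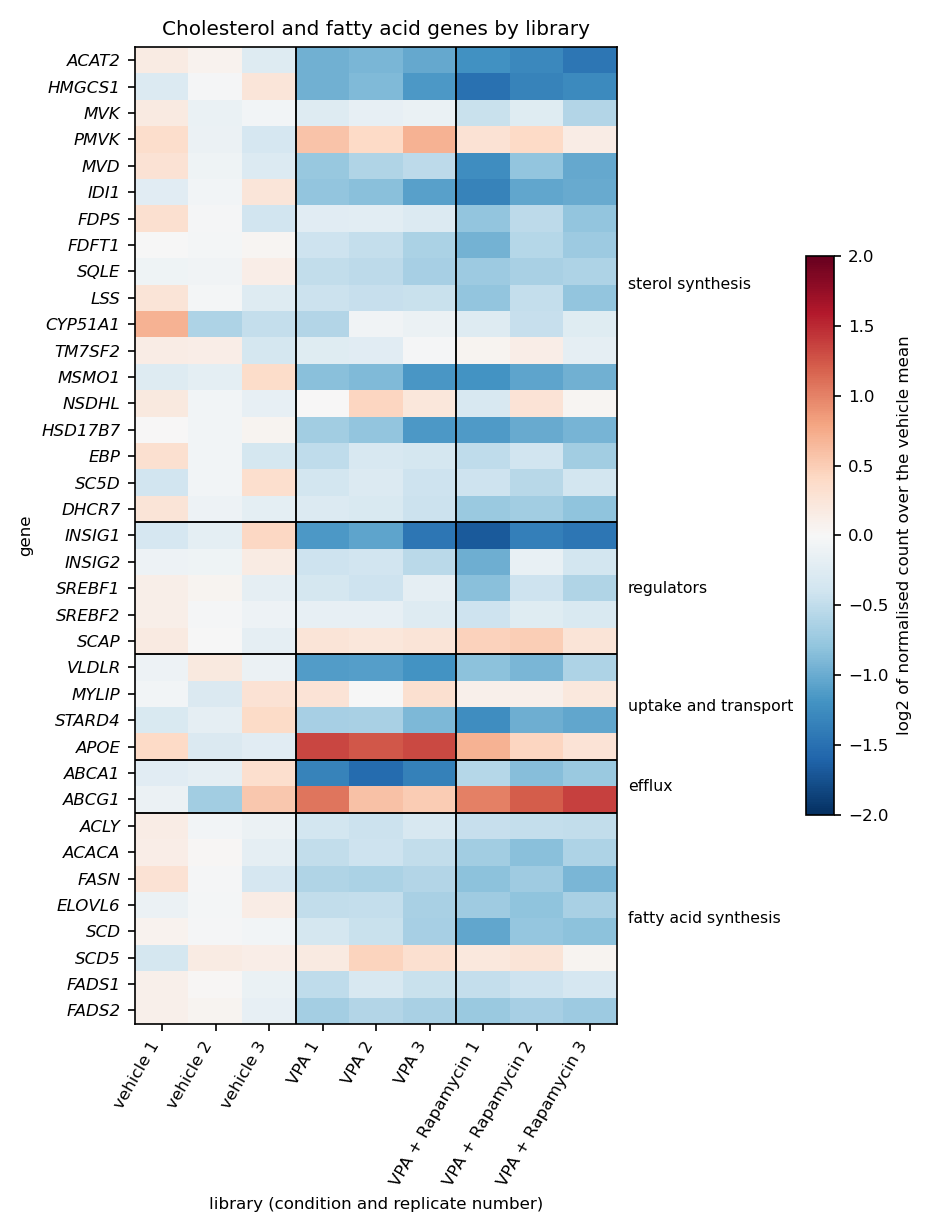
Level of each of the 37 genes (rows, in role groups) in each of the 9 libraries (columns), as log2 of the normalised count over the mean of the 3 vehicle libraries. Blue cells are lower than the vehicle mean and red cells higher, and 21 genes fell in VPA while APOE rose.

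**Figure D2:**
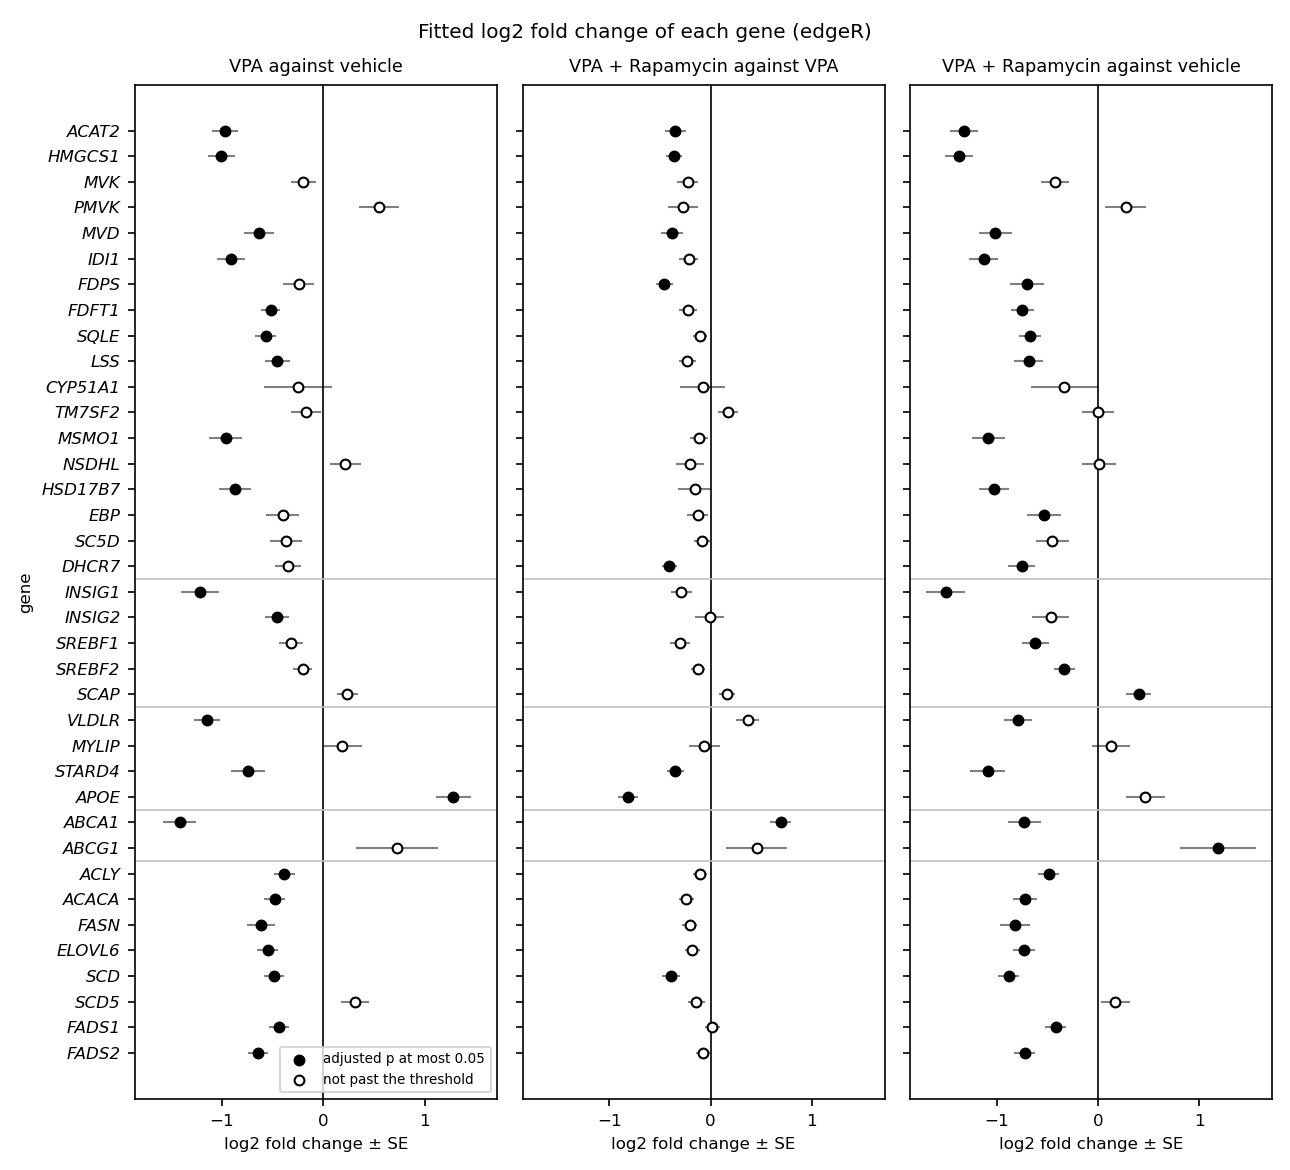
Log2 fold change with its standard error for each gene in the 3 comparisons, with filled points for an adjusted p of at most 0.05. Filled points lie left of 0 for 21 genes in VPA against vehicle, 8 in VPA + Rapamycin against VPA and 25 in VPA + Rapamycin against vehicle.

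The enzymes of sterol synthesis were abundant and unequal in vehicle SCOs. Levels are compared between genes as the FPKM of the authors, which divides counts by gene length. HMGCS1, which makes HMG-CoA from acetyl-CoA and acetoacetyl-CoA, stood at 143 ± 26.8 FPKM (SD, n = 3), MSMO1, a demethylase of lanosterol-derived sterols, at 104 ± 26.8 and FDFT1, which joins farnesyl diphosphates into squalene, at 102 ± 3.64. The libraries of MSMO1 (86.5 to 135 FPKM) overlapped those of both others, whereas HMGCS1 (118 to 171) and FDFT1 (99.6 to 106) did not overlap. CYP51A1, the lanosterol demethylase, was the lowest of the 18 at 1.76 ± 0.94 FPKM. Summed over the 18 enzymes, the level was 644 to 732 FPKM in the vehicle libraries, 406 to 449 in VPA and 343 to 392 in VPA + Rapamycin, so the conditions did not overlap.

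HMGCS1 measured 9202, 10981 and 13185 normalised counts in the vehicle libraries, 5689, 6035 and 5023 in VPA, and 3975, 4399 and 4617 in VPA + Rapamycin. Every VPA library lay below every vehicle library, and every VPA + Rapamycin library below every VPA library. It fell by 1.01 ± 0.13 (SE) on the log2 scale in VPA (edgeR adjusted p = 0.000337), to 50.2% of the vehicle mean. It fell by a further 0.36 ± 0.08 with Rapamycin (edgeR adjusted p = 0.0111), although the adjusted p was 0.215 with all 9 libraries in a single fit. ACAT2, which joins acetyl-CoA units before that step, measured 1187, 1114 and 890 in vehicle, 546, 568 and 525 in VPA, and 459, 434 and 389 in VPA + Rapamycin. The 3 conditions were again separate. ACAT2 fell by 0.97 ± 0.13 in VPA (edgeR adjusted p = 0.00034) and by 0.35 ± 0.10 with Rapamycin (edgeR adjusted p = 0.0463, lost under 7 of 12 alternatives). It overlaps TCP1 on the other strand, whose mean count of 3171 over the vehicle and VPA libraries exceeded the 796.5 of ACAT2, and whether the strand was used in counting is not given in the sources used here.

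IDI1, the isomerase that supplies the isoprenoid chain, measured 3347, 3750 and 4635 in vehicle, 2271, 2181 and 1844 in VPA, and 1545, 1911 and 1953 in VPA + Rapamycin. All VPA libraries were below all vehicle libraries, whereas VPA and VPA + Rapamycin overlapped. IDI1 fell by 0.91 ± 0.14 in VPA (edgeR adjusted p = 0.000641), and its log2 fold change with Rapamycin was -0.22 ± 0.09 (edgeR adjusted p = 0.19). MSMO1 measured 4166, 4333 and 6393 in vehicle, 2794, 2706 and 2208 in VPA, and 2159, 2386 and 2539 in VPA + Rapamycin. It showed the same arrangement, with a decrease of 0.96 ± 0.16 in VPA (edgeR adjusted p = 0.00143) and -0.12 ± 0.09 with Rapamycin (edgeR adjusted p = 0.483).

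FDPS and DHCR7 were lowered in VPA + Rapamycin against VPA without passing the test in VPA against vehicle. FDPS, which makes farnesyl diphosphate, measured 2288, 1791 and 1391 in vehicle, 1564, 1577 and 1511 in VPA, and 1053, 1267 and 1061 in VPA + Rapamycin. Vehicle and VPA overlapped, and VPA + Rapamycin lay below both. Its log2 fold change was -0.24 ± 0.15 in VPA (edgeR adjusted p = 0.246, 0.00734 without vehicle replicate 3) and it fell by 0.46 ± 0.08 with Rapamycin (edgeR adjusted p = 0.00274, 0.178 with all 9 libraries in a single fit). DHCR7, which completes cholesterol from 7-dehydrocholesterol, measured 2113, 1637 and 1533 in vehicle, 1459, 1424 and 1306 in VPA, and 1053, 1093 and 1006 in VPA + Rapamycin. The libraries of the 3 conditions did not overlap. The log2 fold change was -0.35 ± 0.13 in VPA (edgeR adjusted p = 0.0601, 0.00596 without vehicle replicate 3), and DHCR7 fell by 0.41 ± 0.08 with Rapamycin (edgeR adjusted p = 0.00378, 0.133 with all 9 libraries in a single fit). Whether the change in VPA differed from the change with Rapamycin was not tested.

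The other called enzymes of this group were lower by smaller amounts in VPA. HSD17B7, a ketoreductase of the late pathway, fell by 0.87 ± 0.16, MVD, the last step of the mevalonate part, by 0.63 ± 0.15, SQLE, the squalene epoxidase, by 0.57 ± 0.10, FDFT1 by 0.52 ± 0.09 and LSS, which closes the lanosterol rings, by 0.45 ± 0.12. The edgeR adjusted p ranged from 0.00208 for SQLE to 0.0171 for LSS, and the call of LSS was lost when any of the VPA libraries was left out. With Rapamycin, MVD fell by a further 0.38 ± 0.11 (edgeR adjusted p = 0.0447), and that call was lost under 5 of 12 alternatives. In VPA + Rapamycin against vehicle, 12 of the 18 enzymes were lower by edgeR, beside 9.22% of 17383 genes, and 14 by DESeq2, beside 5.96% of 30038. The median log2 fold change of the 18 by edgeR was -0.69.

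The remaining enzymes did not pass by edgeR in that last comparison. MVK and PMVK, the mevalonate kinases, had log2 fold changes of -0.42 ± 0.14 and 0.27 ± 0.20, TM7SF2, a sterol reductase, 0.0015 ± 0.15, NSDHL, a sterol dehydrogenase, 0.01 ± 0.17, SC5D, a desaturase, -0.45 ± 0.16 and CYP51A1 -0.33 ± 0.33. MVK and SC5D did pass as lower by DESeq2 (adjusted p = 0.0444 and 0.0405) and with all 9 libraries in a single edgeR fit (adjusted p = 0.0206 and 0.0343), and also passed by edgeR without vehicle replicate 3 (MVK, adjusted p = 0.0334) or without vehicle replicate 1 (SC5D, adjusted p = 0.0059). PMVK read in the other direction in VPA against vehicle, at 0.55 ± 0.20 (edgeR adjusted p = 0.0548), and passed as higher under 4 of 12 alternatives, among them without vehicle replicate 1 (edgeR adjusted p = 0.00535). EBP, a sterol isomerase, passed at the threshold itself in VPA + Rapamycin against vehicle (log2 fold change -0.53 ± 0.17, edgeR adjusted p = 0.05) and lost the call under 6 of 12 alternatives. CYP51A1 was measured on 69 to 170 normalised counts in vehicle, and its spread there (CV 54.1%) was the widest of the 37 genes. MVK shares its span with MMAB, and TM7SF2 with VPS51, each with a mean count above its own.

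**Figure D3:**
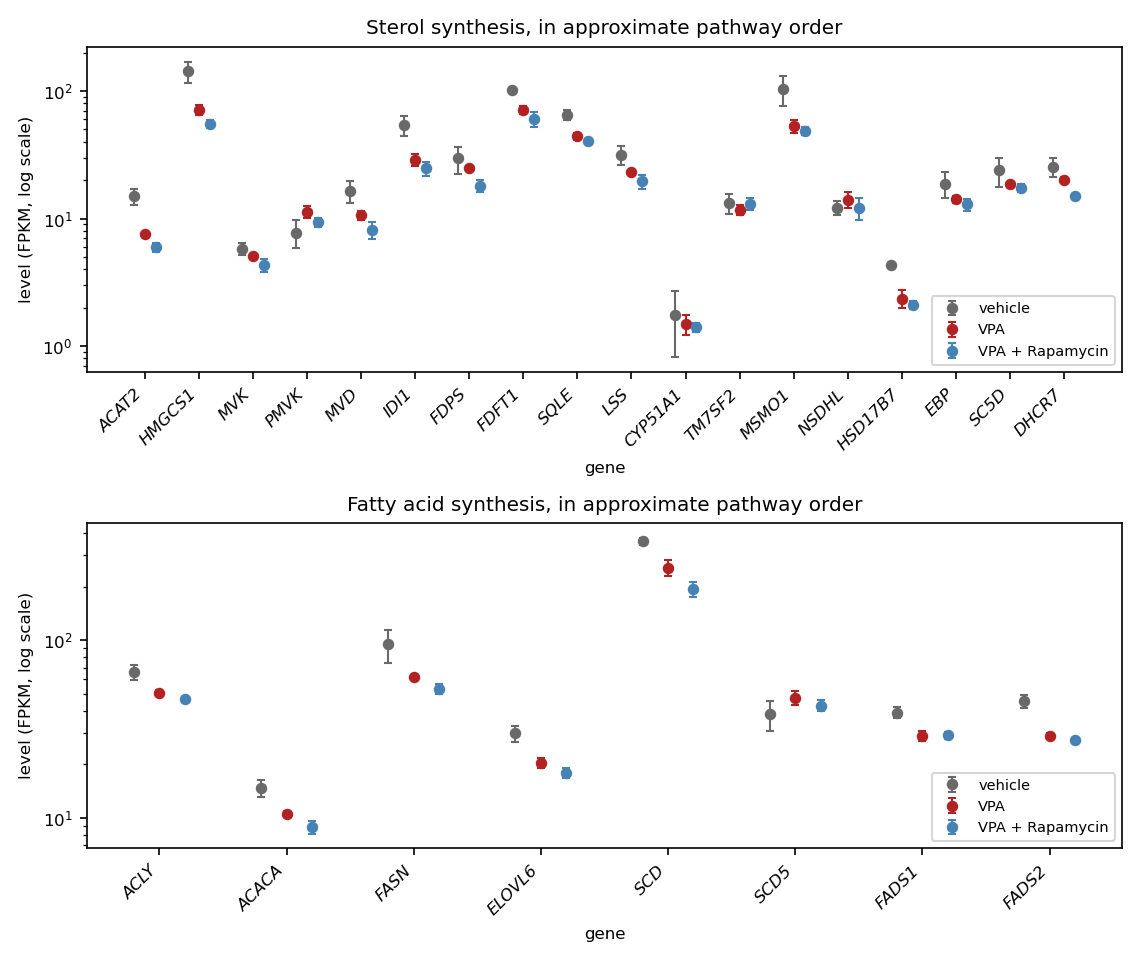
Level per gene length (FPKM, log axis) of the enzymes of sterol synthesis and of fatty acid synthesis in approximate pathway order, as the mean of 3 libraries with the SD, for vehicle, VPA and VPA + Rapamycin. The summed level of the sterol enzymes was 644 to 732 FPKM in vehicle, 406 to 449 in VPA and 343 to 392 in VPA + Rapamycin.

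Among the regulators, INSIG1 and INSIG2 fell in VPA against vehicle by edgeR, and SREBF1, SREBF2 and SCAP did not pass in that comparison. No difference between the regulators was tested. INSIG1, both a brake on SCAP and a target of the SREBPs, measured 1800, 1985 and 3045 normalised counts in vehicle, 1032, 1097 and 840 in VPA, and 707, 880 and 838 in VPA + Rapamycin. The treated libraries were all below the vehicle libraries and overlapped each other. INSIG1 fell by 1.21 ± 0.19 on the log2 scale in VPA (edgeR adjusted p = 0.000806), to 43.5% of the vehicle mean, and was at 35.5% in VPA + Rapamycin. The log2 fold change with Rapamycin was -0.29 ± 0.11 (edgeR adjusted p = 0.112, 0.0413 without VPA replicate 3). INSIG2 measured 1052, 1058 and 1263 in vehicle, 844, 863 and 770 in VPA, and 572, 1013 and 871 in VPA + Rapamycin. All treated libraries lay below vehicle, and the spread with Rapamycin took in that of VPA. INSIG2 fell by 0.46 ± 0.12 in VPA (edgeR adjusted p = 0.0136, lost without VPA replicate 1 or 3) and had a log2 fold change of -0.01 ± 0.14 with Rapamycin (edgeR adjusted p = 0.983).

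SREBF2, the factor that mainly drives sterol synthesis, was the most abundant regulator at 64.5 ± 4.79 FPKM in vehicle. It measured 8781, 7901 and 7504 normalised counts in vehicle, 7176, 7194 and 6772 in VPA, and 6024, 6801 and 6525 in VPA + Rapamycin. The VPA libraries were below the vehicle libraries by little, with a log2 fold change of -0.20 ± 0.09 (edgeR adjusted p = 0.12, 0.0334 without vehicle replicate 3). The 9 libraries of SREBF1, which mainly drives fatty acid synthesis, read 2160, 2054 and 1750 in vehicle, 1563, 1492 and 1760 in VPA, and 1108, 1494 and 1305 in VPA + Rapamycin. Neighbouring conditions overlapped, and the log2 fold change was -0.32 ± 0.11 in VPA (edgeR adjusted p = 0.0533, 0.0471 by DESeq2) and -0.30 ± 0.10 with Rapamycin (edgeR adjusted p = 0.0748, 0.0117 without VPA + Rapamycin replicate 2). Against vehicle, SREBF1 in VPA + Rapamycin fell by 0.62 ± 0.13 (edgeR adjusted p = 0.0106) and SREBF2 by 0.33 ± 0.10 (edgeR adjusted p = 0.0462, lost under 8 of 12 alternatives). SREBF1 overlaps RAI1 on the other strand, with mean counts of 1789 and 1403.

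SCAP, the escort of the SREBPs, was the only regulator with higher estimates in all 3 comparisons. It measured 2692, 2368 and 2097 in vehicle, 2840, 2802 and 2862 in VPA, and 3286, 3364 and 2854 in VPA + Rapamycin. All treated libraries were above the vehicle libraries. The log2 fold change was 0.24 ± 0.11 in VPA (edgeR adjusted p = 0.113, 0.0137 without vehicle replicate 1), and SCAP rose by 0.40 ± 0.12 in VPA + Rapamycin against vehicle (edgeR adjusted p = 0.0398, lost under 5 of 12 alternatives).

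The genes of uptake and transport did not move together. VLDLR, a receptor for lipoproteins that carry APOE and for Reelin, measured 726, 888 and 720 in vehicle, 357, 363 and 338 in VPA, and 440, 413 and 508 in VPA + Rapamycin. The VPA libraries lay below all others and those with Rapamycin lay between vehicle and VPA. VLDLR fell by 1.15 ± 0.13 in VPA (edgeR adjusted p = 0.000125), to 45.3% of the vehicle mean, and the log2 fold change with Rapamycin was 0.37 ± 0.11 (edgeR adjusted p = 0.0539, 0.0351 without VPA + Rapamycin replicate 2). STARD4, a carrier of sterol between membranes, measured 2948, 3227 and 4766 in vehicle, 2314, 2328 and 1967 in VPA, and 1543, 1857 and 1781 in VPA + Rapamycin. The conditions were separate and followed the arrangement of HMGCS1. STARD4 fell by 0.74 ± 0.17 in VPA (edgeR adjusted p = 0.00649) and by 0.35 ± 0.09 with Rapamycin (edgeR adjusted p = 0.0207, 0.347 with all 9 libraries in a single fit). The antisense gene STARD4-AS1 overlaps it, with a mean count of 597.5 against 2895 for STARD4.

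APOE, the main lipoprotein component made in nervous tissue and chiefly a product of glia, was the gene that rose in VPA. It measured 543, 338 and 352 normalised counts in vehicle, 1034, 968 and 1026 in VPA, and 665, 555 and 498 in VPA + Rapamycin. The VPA libraries lay above all others, and VPA + Rapamycin overlapped vehicle. APOE rose by 1.28 ± 0.17 in VPA (edgeR adjusted p = 0.000335), to 246% of the vehicle mean, and fell by 0.81 ± 0.10 with Rapamycin (edgeR adjusted p = 9.86e-05), a decrease that held under every alternative setting and with each library left out in turn. Its log2 fold change in VPA + Rapamycin against vehicle was 0.47 ± 0.19 (edgeR adjusted p = 0.111). It passed as higher there without vehicle replicate 1 (log2 fold change 0.72, edgeR adjusted p = 0.00701). APOE also passed with the replicate number as a block (log2 fold change 0.49, edgeR adjusted p = 0.0216) and with no filter on low counts (edgeR adjusted p = 0.0423). The mesenchymal sum, mostly COL1A1 and COL1A2, was also highest in VPA (9837 to 12306 normalised counts), and the astrocyte sum, mostly SLC1A2, was above vehicle in both treated conditions. The part of these markers in the level of APOE was not tested. MYLIP, a ligase that removes lipoprotein receptors and a target of LXR, did not pass in any of the 3 comparisons by edgeR or by DESeq2, with log2 fold changes of 0.19 ± 0.20, -0.06 ± 0.15 and 0.13 ± 0.19.

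Of the exporters, ABCA1, which loads cholesterol onto lipoprotein particles, measured 1110, 1147 and 1640 in vehicle, 513, 446 and 511 in VPA, and 875, 719 and 777 in VPA + Rapamycin. The conditions were separate, with VPA lowest and VPA + Rapamycin between. ABCA1 fell by 1.42 ± 0.16 in VPA (edgeR adjusted p = 0.000142), to 37.7% of the vehicle mean, and had the lowest log2 fold change of the 37 genes. With Rapamycin it rose by 0.69 ± 0.10 (edgeR adjusted p = 0.000521, 0.059 with all 9 libraries in a single fit), to 60.8% of the vehicle mean. It remained 0.73 ± 0.16 below vehicle on the log2 scale, a call lost without VPA + Rapamycin replicate 2 or 3. ABCG1, a partner exporter, was sparse, at 13 to 31 normalised counts in vehicle, 30 to 44 in VPA and 42 to 54 in VPA + Rapamycin. ABCG1 was higher in VPA + Rapamycin than in vehicle by 1.18 ± 0.37 on the log2 scale (edgeR adjusted p = 0.048), a call lost under 6 of 12 alternatives, and the vehicle and VPA libraries overlapped.

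**Figure D4:**
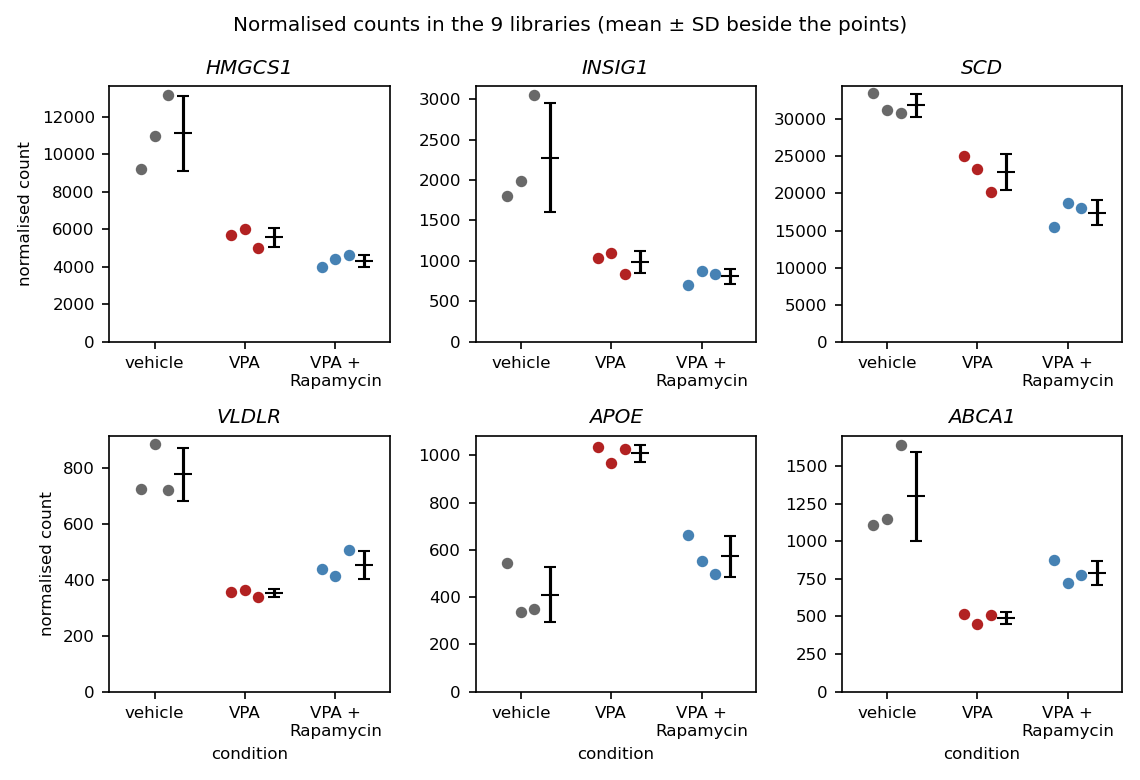
Normalised counts of 6 genes in the 9 libraries, by condition, with the mean ± SD beside the 3 points of each. HMGCS1, INSIG1 and SCD were lower in both treated conditions, VLDLR and ABCA1 were lowest in VPA, and APOE was highest in VPA.

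Of the 8 enzymes of fatty acid synthesis in the list, 7 fell in VPA, beside 15.7% over all genes. SCD, the desaturase that makes oleate, was the most abundant of the 37 genes at 359 ± 14.7 FPKM in vehicle, followed in this group by FASN at 94.4 ± 19.97. SCD measured 33578, 31247 and 30780 normalised counts in vehicle, 25006, 23349 and 20213 in VPA, and 15495, 18730 and 18018 in VPA + Rapamycin. The libraries fell into 3 separate levels. SCD fell by 0.49 ± 0.10 in VPA (edgeR adjusted p = 0.00358) and by 0.39 ± 0.09 with Rapamycin (edgeR adjusted p = 0.0112, lost with all 9 libraries in a single fit and without VPA replicate 1 or 2). By edgeR no other gene of the group was called in VPA + Rapamycin against VPA, and DESeq2 also called FASN (adjusted p = 0.0217) and ACACA (adjusted p = 0.0362) lower. Whether SCD differed from the rest of the group was not tested.

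FASN, the synthase that builds palmitate, measured 17934, 14456 and 11544 in vehicle, 9687, 9473 and 9759 in VPA, and 8336, 8931 and 7756 in VPA + Rapamycin. Vehicle was spread widely (CV 21.8%) and still lay above all treated libraries. FASN fell by 0.61 ± 0.14 in VPA (edgeR adjusted p = 0.00597), and its log2 fold change with Rapamycin was -0.21 ± 0.07 (edgeR adjusted p = 0.0977). ACACA, which makes malonyl-CoA, measured 3484, 3236 and 2784 in vehicle, 2241, 2374 and 2252 in VPA, and 1964, 1768 and 2075 in VPA + Rapamycin. Its libraries were separate by condition, with a fall of 0.48 ± 0.11 in VPA (edgeR adjusted p = 0.00597) and a log2 fold change of -0.24 ± 0.08 with Rapamycin (edgeR adjusted p = 0.0683). ELOVL6, the elongase of palmitate, measured 3311, 3509 and 3993 in vehicle, 2557, 2594 and 2294 in VPA, and 2196, 2056 and 2310 in VPA + Rapamycin. Vehicle lay above both treated conditions, which overlapped, and ELOVL6 fell by 0.55 ± 0.11 in VPA (edgeR adjusted p = 0.00308).

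FADS2 and FADS1, the desaturases of polyunsaturated fatty acids, lie side by side and overlap in the tables. FADS2 also overlaps FEN1 on the same strand, with mean counts of 6726 for FADS2 and 1144.5 for FEN1. FADS2 measured 8861, 8533 and 7362 in vehicle, 5129, 5512 and 5290 in VPA, and 4925, 5196 and 4982 in VPA + Rapamycin. FADS1 measured 7069, 6689 and 6053 in vehicle, 4641, 5284 and 4835 in VPA, and 4733, 4976 and 5208 in VPA + Rapamycin. For both, vehicle was higher and the treated conditions overlapped. FADS2 fell by 0.65 ± 0.10 (edgeR adjusted p = 0.000764) and FADS1 by 0.44 ± 0.10 (edgeR adjusted p = 0.00697, lost without VPA replicate 1) in VPA, and with Rapamycin the log2 fold changes were -0.07 ± 0.07 and 0.02 ± 0.07. ACLY, which supplies acetyl-CoA from citrate, fell by 0.38 ± 0.10 in VPA (edgeR adjusted p = 0.0137, lost without VPA replicate 1 or 2). SCD5, a desaturase with a brain-enriched pattern, read the other way, at 2120 to 3032 normalised counts in vehicle and 3089 to 3698 in VPA, with a log2 fold change of 0.31 ± 0.14 (edgeR adjusted p = 0.111). Summed over the 8 enzymes, the level was 652 to 727 FPKM in vehicle, 474 to 521 in VPA and 399 to 439 in VPA + Rapamycin.

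The vehicle libraries varied more than the treated ones, and not in the same way for every gene. Over the 37 genes the median CV was 17.5% for vehicle libraries, 6.71% for VPA and 9.01% for VPA + Rapamycin. Vehicle replicate 1 was the highest vehicle library for 21 genes, among them FASN, FDPS, LSS and DHCR7. Vehicle replicate 3 was the highest for 14 genes, among them HMGCS1, IDI1, MSMO1, SC5D, INSIG1, STARD4 and ABCA1, and the lowest for 19. The neuron markers summed highest in vehicle replicate 3 (36035) and lowest in vehicle replicate 1 (21253). With vehicle replicate 3 left out, FDPS, DHCR7, TM7SF2 (edgeR adjusted p = 0.046), EBP (0.0031), SREBF1 (0.0052) and SREBF2 (0.0334) also passed as lower in VPA against vehicle, and SCD5 (0.0211) as higher.

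Other genes of the same pathways moved in both directions. Over 4 further lists, 12 of 55 tested genes rose (21.8%) and 10 fell (18.2%) in VPA, beside 16.4% and 15.7% over all genes. Of 9 genes that process the SREBPs or belong to the LXR and RXR receptors, 3 fell and 1 rose in VPA, with a median log2 fold change of -0.09. ERLIN2, which helps to degrade sterol-regulated proteins, rose by 0.59 ± 0.10 (edgeR adjusted p = 0.0015), and MBTPS1, the first protease of the SREBPs, fell by 0.39 ± 0.10 (edgeR adjusted p = 0.0122) and rose by 0.40 ± 0.07 with Rapamycin (edgeR adjusted p = 0.00276). Of 14 tested genes of sterol handling, 4 rose and 2 fell in VPA, with a median of 0.09. NCEH1, a hydrolase of cholesterol esters, measured 75, 55 and 65 in vehicle and 118, 168 and 174 in VPA, and rose by 1.22 ± 0.23 (edgeR adjusted p = 0.00282). The lysosomal exporters of cholesterol moved apart, as NPC2 rose by 0.68 ± 0.10 (edgeR adjusted p = 0.000654) and NPC1 fell by 0.40 ± 0.10 (edgeR adjusted p = 0.0135). LRP8, the other Reelin receptor, fell by 0.79 ± 0.12 (edgeR adjusted p = 0.000647).

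Of 8 genes of the isoprenoid branch, 1 rose and 1 fell in VPA (median log2 fold change 0.20), beside 16.4% and 15.7% over all genes. The raised gene was ICMT, a methyltransferase of prenylated proteins, at 0.96 ± 0.10 (edgeR adjusted p = 8.25e-05). Of 24 tested genes of further fatty acid metabolism, 6 rose and 4 fell, with a median of 0.19. ME1, a source of NADPH for synthesis, measured 46, 50 and 77 in vehicle and 134, 162 and 100 in VPA, and rose by 1.19 ± 0.28 (edgeR adjusted p = 0.00778). ELOVL7, a further elongase, was near the floor at 4 to 10 normalised counts in vehicle and 18 to 24 in VPA (log2 fold change 1.40 ± 0.49, edgeR adjusted p = 0.0489). LPIN1, a phosphatase of lipid synthesis, fell by 0.86 ± 0.13 (edgeR adjusted p = 0.0007). These 4 lists together held, in VPA + Rapamycin against VPA, 1 raised gene of 55 (1.82%), MBTPS1, and 4 lowered ones (7.27%), FABP5, FABP7, NPC2 and SCARB1, beside 3.01% and 3.73% over all genes.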

How the data were processed

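Messenger RNA of whole SCOs was purified on poly-T beads and primed with random hexamers. The submitters' processing notes name HISAT2 2.0.5 and featureCounts 1.5.0-p3, and the tables give coordinates on GRCh38. The authors deposited a table for each pair of conditions, with 30034, 29566 and 30047 genes. The counts deposited are reads per gene without normalization, and the FPKM values deposited divide them by gene length and library size. A further 18 columns of scaled counts were not used here, nor were the authors' own fold changes and p-values. The use of the strand is not given in the sources used here.

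Each pair of conditions was fitted with edgeR 4.0.16 in R 4.3.3 (TMM, filterByExpr, quasi-likelihood F test, Benjamini and Hochberg adjustment over all genes tested, threshold 0.05, no replicate block). Normalised counts were scaled by TMM across all 9 libraries together. Alternatives were DESeq2 1.42.0, upper-quartile normalization, no filter, a stricter filter (each library at 10 counts or more), a single fit of the 9 libraries, a replicate block and leaving out each library, 12 settings for a comparison. P-values set a difference against the spread between libraries. The libraries are pools of SCOs from clones of the WTC line, so the spread between donors was not measured. In 5 simulations of VPA against vehicle (17360 genes, 200 changed) edgeR recovered 63.7% of changes of 2-fold and 87.7% of 4-fold. Of the simulated calls 8.48% were false, above the nominal rate. In the real comparison 32.1% of genes were called, and many changes were smaller than 2-fold. The simulated rates therefore do not carry over to the calls given here. Between replicates the chi-square per gene was 4.75 to 39.1, above sampling noise.

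The genes and lists were chosen with earlier results of these data known. Values by library are given for up to 6 genes of a role that passed in VPA against vehicle or VPA + Rapamycin against VPA, smallest p first, and for all regulators. The other pathway genes named are those past the threshold with a log2 fold change of at least 1, and ERLIN2, MBTPS1, NPC1, NPC2, LRP8, ICMT, LPIN1, FABP5, FABP7, SCARB1, TFAP2B, DCN, PRRX1 and the markers singled out were named after their values were seen. Of the 37 genes, 7 overlap another gene that had over 10% of their mean count.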

Additional observations from a re-analysis of the deposited data

How the results depend on the processing

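Of the 22 calls in VPA against vehicle, 18 held under all 12 alternatives, of the 27 in VPA + Rapamycin against vehicle 17 did, and of the 9 in VPA + Rapamycin against VPA only that of APOE did. In VPA against vehicle, the count of higher genes went from 1 to 2 with all 9 libraries in a single fit (18.1% over all genes) and with upper-quartile normalization (17.7%). It went to 3 with no filter (10.5%), and was 1 to 3 with a library left out (9.97% to 19.5%). The count of lower genes was 17 to 27 with a library left out (8.9% to 18.1%). In VPA + Rapamycin against VPA, all 9 libraries in a single fit gave 0 higher and 1 lower by edgeR (0.244% and 0.383% over all genes), with 2 and 11 at an unadjusted p under 0.05. DESeq2 on the pair gave 1 and 10 (1.84% and 2.34%), and no filter gave 12 lower (3.12%). Leaving out a library gave 1 to 2 higher (0.978% to 2.99%) and 3 to 11 lower (1.66% to 3.76%). In VPA + Rapamycin against vehicle, DESeq2 gave 1 higher (5.9% over all genes). Leaving out a library gave 0 to 2 higher (4.24% to 12.3%) and 18 to 26 lower (2.97% to 11.8%), with 2 or 3 higher at an unadjusted p under 0.05 where the count was 0. The cause was not tested.

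Changes of sign concerned values that were not called. TM7SF2 in VPA + Rapamycin against vehicle became -0.00042 with all 9 libraries in a single fit and -0.143 to 0.0951 with a library left out, and NSDHL became -0.000966 with the replicate block and -0.135 to 0.155 with a library left out. CYP51A1 ranged, with a library left out, from -0.478 to 0.290 in VPA against vehicle, from -0.227 to 0.0095 in VPA + Rapamycin against VPA and from -0.560 to 0.206 in VPA + Rapamycin against vehicle. In VPA + Rapamycin against VPA the ranges were -0.195 to 0.193 for INSIG2, -0.159 to 0.0033 for MYLIP and -0.0244 to 0.0707 for FADS1, and in VPA + Rapamycin against vehicle -0.000519 to 0.303 for MYLIP.

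Same-numbered libraries did not deviate together throughout. Over 17220 genes the correlation of their deviations from the group means was -0.0599 to 0.0606 for VPA and vehicle, -0.0232 to 0.0976 for VPA + Rapamycin and VPA, and 0.0624 to 0.172 for VPA + Rapamycin and vehicle. With the replicate number as a block, 1 gene was higher and 21 were lower in VPA, 1 and 8 with Rapamycin against VPA, and 3 and 27 in VPA + Rapamycin against vehicle. Over all genes the shares in the same order were 15% and 13.6%, 3.11% and 4.07%, and 12.1% and 11.1%. The block added APOE as higher, and INSIG2, MVK and SC5D as lower, in VPA + Rapamycin against vehicle, and SREBF1 as lower against VPA. ABCG1 rested on 13 to 54 normalised counts a library. CYP51A1 rested on 69 to 170, and its CV in vehicle was 54.1%.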
